A study of Mus musculus with 7 samples.

Results

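The genes described here encode the extracellular and membrane part of Wnt signalling in C2C12 muscle cells that had received exosomes. They were chosen by name on the array, as every Wnt ligand, Frizzled receptor, Lrp5 and Lrp6, every secreted Frizzled-related protein, Dickkopf protein and R-spondin, together with Wif1 and Axin2. The rule found 53 of 39429 non-control probes, for 45 of 31829 gene names. It used no measured value, but it was chosen with earlier results of these data known. Shares of members set beside those of all probes are therefore descriptive. C2C12 is a mouse myoblast line that fuses into myotubes in culture. All recipient cultures were given exosomes released by other C2C12 cells, and no array of cells without exosomes is part of the comparison. In the EXO-Post BSA group (4 arrays) the donor cells had received BSA alone, and in the EXO-Post Palm group (3 arrays) they had received palmitate at 0.5 mmol/l. The paper states that the exosomes were collected 9 h after the palmitate was removed and were left on the recipient cells for 24 h. The labels call the recipient cells myoblasts, whereas the paper calls them myotubes. For each array 100 ng of RNA from 1 culture was labelled with Cy-3, and the labels call the samples biological replicates. The cell line entries of the labels run from C2C12 to C2C18 over the samples, and all were taken as C2C12 here, the line that the paper names.

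Wnt proteins are secreted lipid-modified ligands that bind Frizzled receptors. With Lrp5 or Lrp6 as co-receptor the signal stabilises beta-catenin, which enters the nucleus and acts with TCF/LEF factors, while other Wnt signals run through polarity or calcium pathways. Secreted Frizzled-related proteins and Wif1 bind the ligands, Dickkopf proteins such as Dkk1 block the co-receptors, and R-spondins keep receptors at the surface. In muscle the pathway is known for its part in myogenic specification and in the differentiation and self-renewal of muscle stem cells.

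A level below is the log2 of the background-subtracted probe intensity after the 75th percentile of the same array was subtracted, so that 0 stands for that percentile. Intensities of different probes are not comparable, so levels were compared only between arrays. The sums over several probes given below follow the brightest probes most, and they too were compared only between arrays. On all 7 arrays the software wrote 44397 spots, no spot was saturated, and 48.5 to 70.3% of the probes were well above background. The correlation between arrays was 0.947 to 0.984. Of 9 myotube genes such as Myog, Myh3 and Acta1, all 9 were detected, and their summed linear level was 708.7 to 880.3 in EXO-Post BSA and 622.0 to 710.7 in EXO-Post Palm. Of 5 myoblast genes 4 were detected, Myf5 being the exception, with sums of 23.8 to 31.4 and 20.8 to 35.2. The 7 detected proliferation genes were all higher with EXO-Post Palm, 5 of them past the threshold, and their sum was 3.68 to 4.32 in EXO-Post BSA and 11.98, 16.7 and 27.9 in EXO-Post Palm replicates 2, 1 and 3. For other cell types, 1 of 6 adipocyte genes was detected (Cidec, but not Adipoq, Fabp4 or Plin1), 4 of 7 osteoblast genes (Bglap1, Bglap2, Runx2 and Dmp1, but not Sp7 or Ibsp) and 2 of 4 endothelial genes (Pecam1 and Kdr, but not Cdh5 or Tek). Their sums overlapped between the groups. In the macrophage and blood list Ptprc and Cd68 were not detected, and the sum of the 4 detected genes was 7.85 to 18.1 in EXO-Post BSA and 5.95 to 7.56 in EXO-Post Palm. Of these 4, Itgam differed by -1.63 on the log2 scale, while Cd14, Emr1 and Csf1r were higher by 1.05, 0.58 and 0.45, none past the threshold. The part of these shifts in the Wnt results was not tested. In RNA of whole cultures, fewer cells of a type and less RNA per cell cannot be told apart.

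A probe counted as detected when the scanner software marked it well above background on at least 3 arrays of 1 group, and 31 of the 53 probes, for 27 of the 45 genes, met this rule. In all, 24 probes were well above background on all 7 arrays and 11 on none. Detected ligands were Wnt1, Wnt4, Wnt5a, Wnt5b, Wnt6, Wnt9a, Wnt9b, Wnt10a, Wnt10b and Wnt11, which are 10 of 19. Receptors were nearly complete, with Fzd1 to Fzd9 (9 of 10) and both co-receptors. All 4 secreted Frizzled-related proteins and 2 of 4 Dickkopf proteins, Dkk2 and Dkk3, were detected. The 18 genes not detected were Wnt2, Wnt2b, Wnt3, Wnt3a, Wnt7a, Wnt7b, Wnt8a, Wnt8b, Wnt16, Fzd10, Dkk1, Dkk4, Wif1, Rspo1, Rspo2, Rspo3, Rspo4 and Axin2. Among these are Wnt3a, the ligand commonly used to activate beta-catenin, and Wnt7a, a ligand known to act on muscle stem cells. Just inside the rule, Wnt9b and 1 probe of Fzd5 were well above background on exactly 3 EXO-Post BSA arrays and fewer than 3 EXO-Post Palm arrays. Just outside it, 6 probes reached 2 arrays of a group, including 1 of 2 probes of Wnt1.

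**Figure D1:**
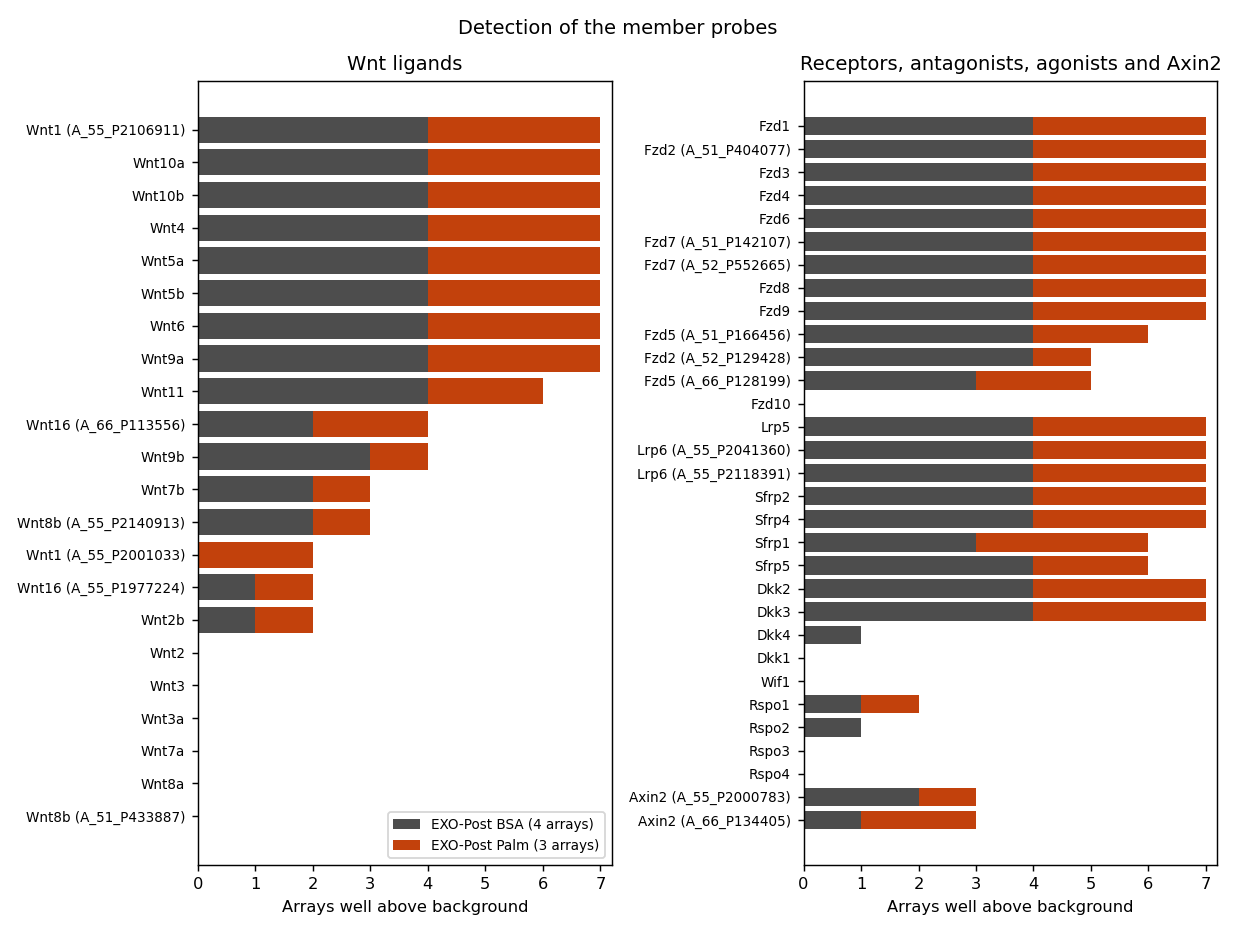
Number of arrays on which each of the 53 member probes was well above background, as horizontal bars with the 4 EXO-Post BSA arrays in grey and the 3 EXO-Post Palm arrays in orange. Probe names are given where a gene has several, 24 bars reach all 7 arrays, and 11 probes have no bar.

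No member passed the threshold of an adjusted p of 0.05 in limma (0 of 31 detected probes, lowest adjusted p = 0.1545 for Fzd6), where 115 of the 21589 tested probes did (0.533%). At an unadjusted limma p under 0.05 there were 9 member probes for 9 genes. For Fzd2 and Fzd7 only the dimmer probe met this limit. Their brighter probes, used in the counts by gene, differed by -0.44 and 0.07 on the log2 scale. Of the 9 probes, those of Sfrp1, Sfrp4 and Fzd8 were higher with EXO-Post Palm, 9.68% of the detected probes against 4.85% of all tested probes. Wnt9a, Fzd2, Fzd6, Fzd7, Sfrp2 and Sfrp5 were lower, 19.4% of the detected probes against 5.19% of all tested probes. Among these, the Fzd2 and Sfrp5 probes met the detection rule through EXO-Post BSA only, with 1 and 2 EXO-Post Palm arrays well above background. The rule itself can therefore add to counts of lower probes. Among probes well above background on all arrays, 6 of 24 members met the unadjusted limit in either direction, and 2054 of 17717 probes in all. Leaving out EXO-Post Palm replicate 3 reduced the 9 probes to 5. The values of the groups did not overlap for 5 member probes (Fzd8 higher, Fzd6, Sfrp2, Sfrp5 and Wnt9a lower), 16.1% of those detected, against 11.0% of all tested probes. With fewer arrays this count was 8 when EXO-Post BSA replicate 2 was left out, 9 when EXO-Post Palm replicate 1 was, and 11 when its replicate 2 was. With 1 probe a gene, 13 of the 27 detected genes were higher and 14 lower. Among the lower genes, Fzd5, Sfrp5, Wnt9b and Wnt11 met the detection rule through EXO-Post BSA only. The median log2 difference of the 27 genes, EXO-Post Palm minus EXO-Post BSA, was -0.0049, and over all 17477 tested genes it was -0.03. Differences over 1 on the log2 scale in either direction were found for 5 of 27 member genes (18.5%) and for 5.12% of all tested genes. Of these 5, Fzd6 and Sfrp5 differed by -0.64 and -0.47 with local background subtraction, and by -0.78 and -0.74 with the authors' processed values. Sfrp2, Sfrp4 and Wnt9a stayed over 1 in size with both. The share of all tested genes was not counted under these settings.

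The typical member lay farther from the EXO-Post BSA mean on the EXO-Post Palm arrays than the typical probe did on 2 of these 3 arrays. Over the 27 genes the median absolute distance was 0.44, 0.35 and 0.55 on the EXO-Post Palm arrays in order of replicate, and over all tested probes it was 0.27, 0.36 and 0.34. On the EXO-Post BSA arrays, which set that mean, it was 0.17 to 0.25 for the members and 0.20 to 0.23 for all tested probes.

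**Figure D2:**
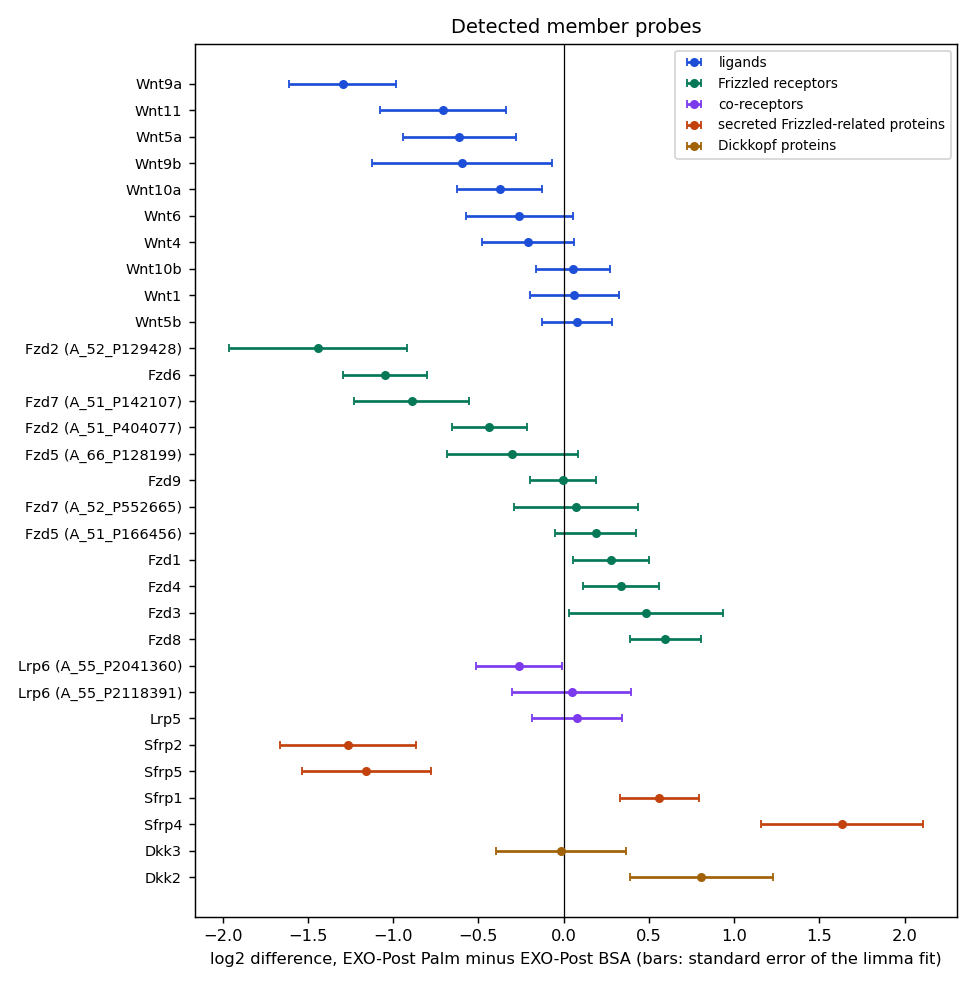
Log2 difference (EXO-Post Palm minus EXO-Post BSA) of the 31 detected member probes on the horizontal axis, grouped and coloured by role, with bars for the standard error of the limma fit. The values run from -1.44 for the dimmer Fzd2 probe to 1.63 for Sfrp4, and the 4 secreted Frizzled-related proteins lie on either side of 0.

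Among the ligands, 7 of the 10 detected genes were lower with EXO-Post Palm and 3 higher, with a median log2 difference of -0.32, and 1 had an unadjusted p under 0.05. Of the lower ligands, Wnt11 and Wnt9b met the detection rule through EXO-Post BSA only, with 2 and 1 EXO-Post Palm arrays well above background. The rule itself can therefore add to the count of lower ligands. The sign of Wnt6 turned with either background correction and with the authors' processed values, that of Wnt10b with median scaling, and those of Wnt1, Wnt5b, Wnt9b and Wnt10b with slide as a block. The ligand with an unadjusted limma p under 0.05 was Wnt9a, known from joint formation, whose probe lies at chr11:59146953-59147012 (mm9). In EXO-Post BSA its level was 2.24, 1.99, 2.17 and 1.53 (replicates 1 to 4, the order used throughout), and in EXO-Post Palm it was 0.83, 1.18 and 0.04 (replicates 1 to 3). Every EXO-Post Palm array was below every EXO-Post BSA array, and EXO-Post Palm replicate 3 was the lowest. The log2 difference was -1.30 (SE 0.312, a 2.46-fold lower intensity), with an unadjusted limma p of 0.0027, an adjusted p of 0.166 and an exact permutation p of 0.0286, the smallest that the 35 splits of 7 arrays can give. Within the slides that held both groups it was -1.28 on slide 1 and -1.49 on slide 3.

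Wnt11 and Wnt5a, ligands best known for signals that do not need beta-catenin, were lowest on EXO-Post Palm replicate 3. The level of Wnt11 was -2.94, -2.59, -2.73 and -3.08 in EXO-Post BSA and -3.23, -2.91 and -4.49 in EXO-Post Palm. For Wnt5a it was -1.98, -1.70, -2.13 and -1.76 in EXO-Post BSA and -1.97, -2.22 and -3.32 in EXO-Post Palm. In each case EXO-Post Palm replicate 3 was far below the other arrays and the groups overlapped. EXO-Post Palm replicate 1 for Wnt11 and replicate 2 for Wnt5a lay just below the EXO-Post BSA arrays. The log2 differences were -0.71 for Wnt11 (adjusted p = 0.575) and -0.61 for Wnt5a (adjusted p = 0.590). Without EXO-Post Palm replicate 3 they were -0.23 and -0.20, and with slide as a block -0.87 and -0.74. With local background subtraction in place of the processed signal they were -0.29 and -0.36.

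Wnt9b, a ligand known from kidney tubule development, was dim and scattered. Its level was -4.76, -3.71, -3.21 and -5.21 in EXO-Post BSA and -3.96, -5.15 and -5.34 in EXO-Post Palm, the groups overlapping widely. The log2 difference of -0.60 (adjusted p = 0.747) became 0.10 when slide was a block and -0.19 with local background subtraction. The remaining ligands differed by less than 0.5 on the log2 scale, with -0.38 for Wnt10a, -0.26 for Wnt6, -0.21 for Wnt4, 0.05 for Wnt10b, 0.06 for Wnt1 and 0.08 for Wnt5b.

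**Figure D3:**
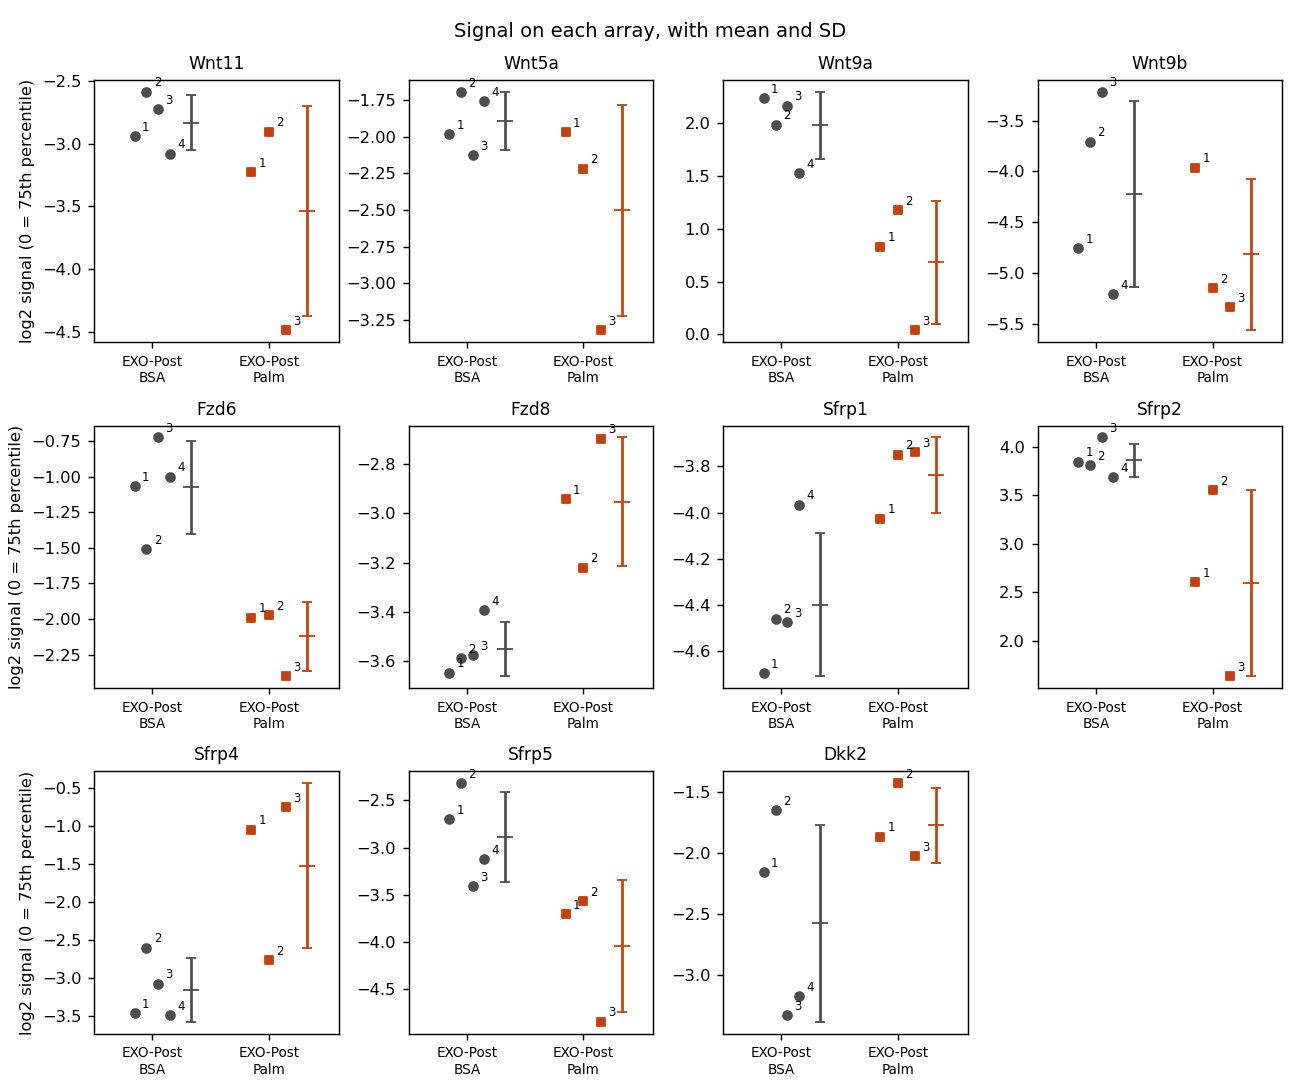
Log2 level of the probes of 11 member genes on each array (vertical axis, 0 is the 75th percentile of the array), with the replicate number beside each point and the mean and SD to the right of each group. Grey circles are the 4 EXO-Post BSA arrays and orange squares the 3 EXO-Post Palm arrays, and the vertical scale differs between panels. The groups do not overlap for Wnt9a, Fzd6, Fzd8, Sfrp2 and Sfrp5, while for Wnt11 and Wnt5a 1 EXO-Post Palm array stands apart.

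Of the 9 detected Frizzled genes, 5 were higher and 4 lower, with a median log2 difference of 0.07. The member with the lowest p was Fzd6, a receptor known from hair patterning and planar polarity, at chr15:38869107-38869166. Its level was -1.07, -1.51, -0.72 and -1.0 in EXO-Post BSA and -1.99, -1.97 and -2.40 in EXO-Post Palm. The groups did not overlap, and the EXO-Post Palm arrays lay close together. The log2 difference was -1.05 (SE 0.245, 2.07-fold lower), with an unadjusted p of 0.0023, an adjusted p of 0.1545 and an exact permutation p of 0.0286. With local background subtraction it was -0.64.

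Fzd8 went the other way, again with no overlap. Its level was -3.65, -3.59, -3.58 and -3.39 in EXO-Post BSA and -2.94, -3.22 and -2.70 in EXO-Post Palm, where every array was higher. The log2 difference was 0.60 (SE 0.206), with an adjusted p of 0.375 and an exact permutation p of 0.0286. It shrank to 0.17 with local background subtraction, 0.19 with normexp and 0.22 with the authors' processed values. Log2 differences were 0.28 for Fzd1, 0.48 for Fzd3, 0.34 for Fzd4 and -0.0049 for Fzd9, each with overlapping groups, and that of Fzd3 was 0.05 when EXO-Post Palm replicate 2 was left out and 0.15 with local background subtraction.

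For Fzd2, Fzd5 and Fzd7 the result depended on the probe. The brighter Fzd2 probe (chr11:102467613-102467672) had levels of 2.93, 2.68, 2.84 and 2.85 in EXO-Post BSA and 2.25, 2.77 and 2.15 in EXO-Post Palm, a log2 difference of -0.44 (unadjusted limma p = 0.0788, exact permutation p = 0.0571). The dimmer one (chr11:102469045-102469104) had levels of -3.09, -2.98, -4.36 and -4.12 in EXO-Post BSA and -4.03, -5.13 and -6.07 in EXO-Post Palm, a log2 difference of -1.44 (unadjusted limma p = 0.0227, adjusted p = 0.406, exact permutation p = 0.143). The groups overlapped with either probe, and the dimmer was well above background on all 4 EXO-Post BSA arrays but on 1 of 3 EXO-Post Palm arrays. Its difference was -0.47 with local background subtraction and -0.91 with the authors' processed values.

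The brighter probe of Fzd7, the Frizzled known as the Wnt7a receptor of muscle stem cells, gave a log2 difference of 0.07. It lies at chr1:59543192-59543251, and its levels were -1.33, -1.21, -0.01 and -0.45 in EXO-Post BSA and -0.33, -1.12 and -0.58 in EXO-Post Palm. A dimmer probe at chr1:59541367-59541426 had levels of -2.23, -2.35, -2.88 and -2.60 in EXO-Post BSA and -2.78, -4.18 and -3.27 in EXO-Post Palm. EXO-Post Palm replicate 2 was the lowest there and replicate 1 lay among the EXO-Post BSA arrays. The log2 difference with that probe was -0.89 (unadjusted limma p = 0.0284, adjusted p = 0.434, exact permutation p = 0.0571). The Fzd5 probes, with 1 on either side of 0 at -0.30 and 0.19, had adjusted p-values of 0.831 and 0.830.

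The brighter Fzd2 probe and the dimmer Fzd7 probe are alike over part of their length, and they are shown because of this likeness. Aligned without gaps they share 42 of 50 overlapping bases (84.0%), given in capitals, and whether either transcript binds the other's probe was not tested.
Fzd2 probe, chr11:102467613-102467672, plus strand, 5′ to 3′: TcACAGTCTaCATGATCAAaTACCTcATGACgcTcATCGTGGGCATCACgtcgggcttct
Fzd7 probe, chr1:59541367-59541426, plus strand, 5′ to 3′: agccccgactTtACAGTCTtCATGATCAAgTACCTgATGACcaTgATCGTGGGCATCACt

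**Figure D4:**
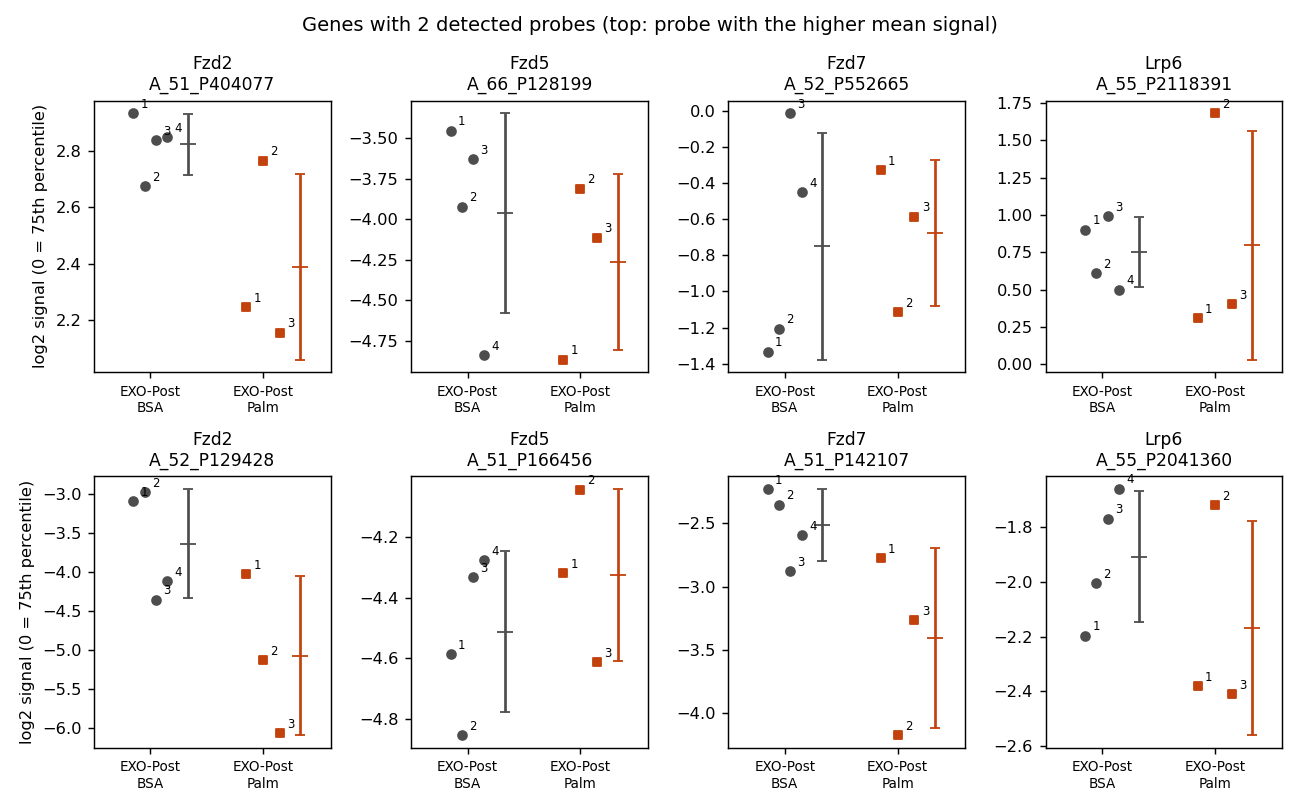
Log2 level on each array (vertical axis, 0 is the 75th percentile of the array) of both detected probes of Fzd2, Fzd5, Fzd7 and Lrp6, the probe with the higher mean signal above. Points, replicate numbers and error bars (SD) are drawn as in the plot of levels by array. The brighter Fzd7 probe differed by 0.07 and the dimmer by -0.89, and the Fzd5 and Lrp6 probes each differed in sign.

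The co-receptors Lrp5 and Lrp6, single-pass proteins that act with Frizzled, showed no difference beyond their spread. The level of Lrp5 was -0.32, 0.51, 0.21 and 0.20 in EXO-Post BSA and -0.13, 0.52 and 0.29 in EXO-Post Palm, with overlap and a log2 difference of 0.08 (95% interval -0.52 to 0.68). For the brighter probe of Lrp6 the levels were 0.90, 0.61, 0.99 and 0.50 in EXO-Post BSA and 0.31, 1.68 and 0.40 in EXO-Post Palm. EXO-Post Palm replicate 2 was the highest of all and the other EXO-Post Palm arrays the lowest, so the log2 difference of 0.05 had a 95% interval from -0.74 to 0.84. The dimmer Lrp6 probe gave -0.26, with slide as a block Lrp5 and the brighter Lrp6 probe gave -0.09 and -0.30, and that Lrp6 probe gave -0.20 with local background subtraction.

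All 4 secreted Frizzled-related proteins had an unadjusted p under 0.05, 2 in each direction, as had 2169 of all 21589 tested probes. Over the alternatives that kept all arrays and tested the probe, Sfrp2 and Sfrp4 kept such a p in 14 of 14. Sfrp5 kept it in 11 of 13 and Sfrp1 in 5 of 13. Secreted Frizzled-related proteins carry a cysteine-rich domain like that of Frizzled and bind Wnt ligands outside the cell. Sfrp4, known from bone and phosphate metabolism, had the largest difference of any detected member, with its probe at chr13:19724488-19724547. Its level was -3.46, -2.60, -3.08 and -3.49 in EXO-Post BSA and -1.05, -2.76 and -0.76 in EXO-Post Palm. EXO-Post Palm replicates 1 and 3 were well above all other arrays, while replicate 2 lay within the EXO-Post BSA range. The log2 difference was 1.63 (SE 0.473, 3.1-fold higher), with an unadjusted p of 0.0077, an adjusted p of 0.267 and an exact permutation p of 0.0571. Within slides 1 and 3 the difference was 1.98 and 2.73, and a block on slide gave 2.30 (adjusted p = 0.0555). Local background subtraction gave 1.05. Without EXO-Post Palm replicate 2, which stood alone on its slide, it was 2.25 with an adjusted p of 0.0214, the only member call in any model run.

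Sfrp2, known as a regulator of myogenic differentiation, was lower on every EXO-Post Palm array. The level at chr3:83577864-83577923 was 3.85, 3.81, 4.10 and 3.69 in EXO-Post BSA and 2.60, 3.55 and 1.64 in EXO-Post Palm. EXO-Post BSA arrays lay within 0.5 of each other, EXO-Post Palm arrays were spread over nearly 2 on the log2 scale, and replicate 2 came closest to the EXO-Post BSA arrays. The log2 difference was -1.26 (SE 0.401, 2.40-fold lower), with an unadjusted p of 0.0122, an adjusted p of 0.324 and an exact permutation p of 0.0286. Within slides 1 and 3 it was -1.23 and -2.05, and it was -0.78 when EXO-Post Palm replicate 3 was left out.

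Sfrp5, a factor known from adipose tissue where it binds Wnt5a, was also lower. Its level was -2.70, -2.32, -3.41 and -3.12 in EXO-Post BSA and -3.71, -3.57 and -4.85 in EXO-Post Palm, with no overlap and a narrow gap between the groups. The log2 difference was -1.16 (SE 0.379), with an adjusted p of 0.345 and an exact permutation p of 0.0571, and the probe was well above background on 2 of 3 EXO-Post Palm arrays. With local background subtraction the difference was -0.47. Sfrp1 was higher, at -4.70, -4.46, -4.47 and -3.97 in EXO-Post BSA and -4.03, -3.75 and -3.74 in EXO-Post Palm. EXO-Post BSA replicate 4 overlapped the EXO-Post Palm arrays, and the log2 difference was 0.56 (SE 0.232, adjusted p = 0.471), or 0.17 with local background subtraction. All 9 member probes with an unadjusted p under 0.05, the 4 Sfrp genes included, had the same sign within slides 1 and 3 as over all arrays. Of them, 7 kept an unadjusted limma p under 0.05 with slide as a block. The 9 probes were picked by their p on these same arrays, so neither count is independent of that choice.

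Of the Dickkopf proteins, Dkk2 was higher by 0.81 (95% interval -0.15 to 1.76, adjusted p = 0.576). Its level was -2.16, -1.65, -3.33 and -3.18 in EXO-Post BSA and -1.86, -1.42 and -2.03 in EXO-Post Palm. EXO-Post BSA replicates 1 and 2, on slide 1, were near the EXO-Post Palm arrays, and the difference was 0.04 within slide 1, 1.15 within slide 3 and 0.52 with slide as a block. Dkk3, a divergent member of the family, differed by -0.02 (95% interval -0.88 to 0.85), or 0.35 with slide as a block.

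Axin2, a direct beta-catenin target that encodes a scaffold of the complex degrading beta-catenin, did not meet the detection rule with either probe. One probe, well above background on 2 of 4 EXO-Post BSA arrays and 1 of 3 EXO-Post Palm arrays, had levels of -3.73, -3.54, -4.27 and -4.23 in EXO-Post BSA and -4.51, -6.68 and -5.92 in EXO-Post Palm. The other, well above background on 1 and 2 arrays, had levels of -6.78, -4.07, -4.56 and -5.22 in EXO-Post BSA and -5.27, -4.11 and -5.69 in EXO-Post Palm. The EXO-Post Palm arrays were all lower with the first probe and overlapped the EXO-Post BSA arrays with the second, and no fold change is given at these intensities.

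Promoter sequence was available in the RefSeq tables (GRCm38.p6) for 29 of the 45 member genes, in 32 windows of the 250 bases before a transcription start. The TCF/LEF motif CTTTGA, or TCAAAG on the opposite strand, was in 4 of these windows (12.5%), those of Dkk1, Fzd1, Wnt11 and Wnt5b, and in 13.8% of the 32851 windows of all genes. Shown first are Wnt9a, Sfrp2 and Sfrp5, none of which has the motif. With Fzd6 they are the detected members whose EXO-Post Palm arrays were all lower, and Fzd6 has no window. Wnt11 is shown for the motif, which is in capitals and begins 50 bases before the start. A second Wnt11 window (chr7:98838595-98838844) has no motif and is not shown. A match of letters is a description and does not show that the site is used.
Wnt9a, chr11:59306680-59306929, plus strand, 5′ to 3′: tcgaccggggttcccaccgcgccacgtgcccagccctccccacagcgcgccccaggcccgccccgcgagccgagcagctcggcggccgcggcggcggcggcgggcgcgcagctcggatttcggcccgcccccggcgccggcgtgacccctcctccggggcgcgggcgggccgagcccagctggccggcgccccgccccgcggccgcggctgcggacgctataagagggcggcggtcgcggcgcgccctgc
Sfrp2, chr3:83766071-83766320, plus strand, 5′ to 3′: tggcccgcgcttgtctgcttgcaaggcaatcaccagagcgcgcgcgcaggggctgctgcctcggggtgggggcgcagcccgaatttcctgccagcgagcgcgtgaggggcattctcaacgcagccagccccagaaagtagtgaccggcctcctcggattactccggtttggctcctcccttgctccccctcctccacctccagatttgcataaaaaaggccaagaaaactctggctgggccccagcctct
Sfrp5, chr19:42202253-42202502, minus strand, 5′ to 3′: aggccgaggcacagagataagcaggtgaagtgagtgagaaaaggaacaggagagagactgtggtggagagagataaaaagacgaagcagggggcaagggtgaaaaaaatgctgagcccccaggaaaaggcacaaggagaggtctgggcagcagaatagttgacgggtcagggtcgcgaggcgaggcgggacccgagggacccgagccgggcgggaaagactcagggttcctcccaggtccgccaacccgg
Wnt11, chr7:98834862-98835111, plus strand, 5′ to 3′: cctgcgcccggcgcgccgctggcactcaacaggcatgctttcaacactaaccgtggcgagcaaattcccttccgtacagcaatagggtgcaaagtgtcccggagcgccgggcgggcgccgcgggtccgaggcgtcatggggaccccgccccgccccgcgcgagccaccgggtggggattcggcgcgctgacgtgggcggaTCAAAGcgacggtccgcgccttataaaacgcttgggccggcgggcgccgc

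Other genes of the pathway were read from 6 lists, also chosen with earlier results of these data known. They held 72 genes, of which 70 were on the array and 51 were tested. With EXO-Post Palm 21 were higher and 30 lower, with a median log2 difference of -0.11, and 1 passed the adjusted threshold. At an unadjusted p under 0.05 there were 14 genes, 3 higher (5.88%, against 4.85% of all tested probes) and 11 lower (21.6%, against 5.19%). Among the 13 tested targets of beta-catenin signalling 10 were lower and 3 higher, with a median of -0.44 and an unadjusted p under 0.05 for 8. Of these 8, 2 were higher (15.4% of the targets, against 4.85%) and 6 lower (46.2%, against 5.19%). In the lists of secretion and receptor turnover, other modulators, non-canonical receptors, cytoplasmic transducers and nuclear factors, 1 of 6, 1 of 4, 2 of 10, 3 of 13 and 2 of 11 genes had such a p, and the medians were -0.16, 0.29, -0.14, -0.13 and -0.07. The turnover gene, Lgr5, and the nuclear genes, Tcf7 and Lef1, are also counted among the 8 targets.

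The gene that passed was Ccnd1, which encodes cyclin D1, a driver of entry into S phase as well as a target of the pathway. Its level was -0.49, -0.45, -0.21 and 0.07 in EXO-Post BSA and 0.98, 1.53 and 2.01 in EXO-Post Palm, and it rose by 1.77 on the log2 scale (SE 0.283, adjusted p = 0.0421). The groups did not overlap, but the adjusted p was 0.0598 with slide as a block and 0.0528 to 0.157 when any 1 array was left out. The proliferation genes whose sums are given above were higher on the same arrays, and their part in the level of Ccnd1 was not tested.

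Fosl1, an AP-1 subunit, and Igfbp4, an insulin-like growth factor binding protein that can also inhibit Wnt receptors, were higher by 1.29 and 1.58 (adjusted p = 0.128 and 0.297). Among the targets with lower values, Wisp1 and Wisp2 encode matricellular proteins of the CCN family. The level of Wisp1 was 3.71, 3.96, 3.79 and 3.85 in EXO-Post BSA and 3.18, 3.19 and 3.14 in EXO-Post Palm, a log2 difference of -0.66 (adjusted p = 0.237). For Wisp2 it was 0.52, 0.12, -0.04 and 0.05 in EXO-Post BSA and -1.35, -0.40 and -1.31 in EXO-Post Palm, a log2 difference of -1.18 (adjusted p = 0.172). Neither gene's groups overlapped, and when EXO-Post Palm replicate 2 was left out the Wisp2 difference was -1.50 (adjusted p = 0.0393).

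Further lower values were found for Lgr5, an R-spondin receptor (-1.24), Dact1, a Dishevelled-binding protein (-0.97), and Tnfrsf19, a TNF receptor family member (-0.83). Tcf7, a TCF/LEF factor, and Daam2, a formin of the polarity branch, were lower by 0.81 and 0.76 on the log2 scale. Their adjusted p-values were 0.194 to 0.451. The 4 other genes with an unadjusted p under 0.05, named after their values were seen, were Ryk, Nkd2, Gsk3a and Lef1, with log2 differences of -0.74, -0.72, -0.48 and -0.47. Beta-catenin itself (Ctnnb1) differed by -0.13 and Axin1 by 0.17, named on the same footing.

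**Figure D5:**
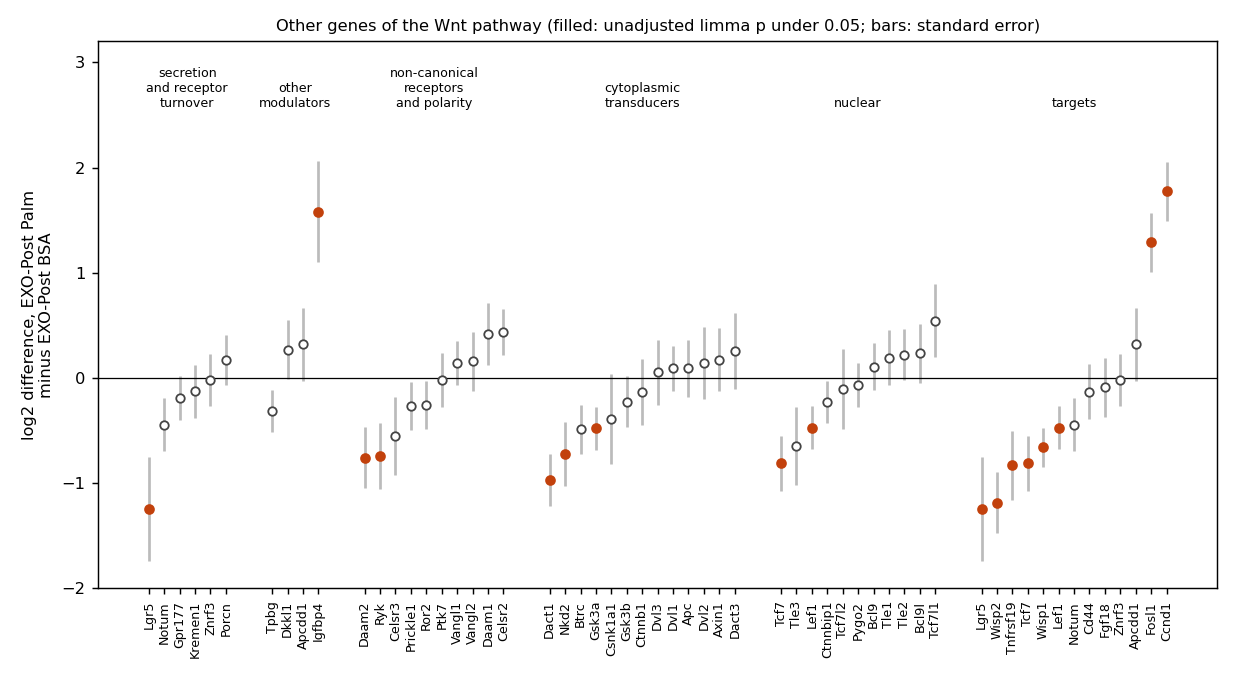
Log2 difference (EXO-Post Palm minus EXO-Post BSA, vertical axis) of the tested genes of 6 Wnt pathway lists, with bars for the standard error of the limma fit. Filled points are the 14 genes with an unadjusted p under 0.05 and open points the others, and a gene on 2 lists is drawn on each. In the list of targets 10 of 13 points lie below 0, with Ccnd1 and Fosl1 above 1.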

How the data were processed

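RNA of 4 EXO-Post BSA and 3 EXO-Post Palm cultures was measured on 1-colour Agilent mouse arrays. The authors deposited the scanner output of each array, in which the processed signal is an intensity with background and spatial trend removed but no normalisation between arrays (probe positions on mm9), and a table of log2 values of unstated settings. The submitters' processing notes name Agilent Feature Extraction 9.1 and limma, while the files carry version 10.7.3.1, and 11.5.1.1 for EXO-Post BSA replicate 3. That file lacked gene names and mean signals, so names were joined by probe, and the normexp and local background subtraction alternatives used the median signal in place of the planned mean signal.

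The processed signal was taken to log2, and each array's 75th percentile over its 43020 spots other than controls was subtracted. Tested were the 21589 probes well above background on at least 3 arrays of 1 group, with limma 3.58.1 in R 4.3.3 (2-sided, Benjamini-Hochberg over all of them). The fit was also run on simulated data with noise independent between arrays, which cannot show how slides affect the calls. An exact permutation test over the 35 splits of the arrays was added for single genes. P-values measure the spread between cultures taken as 1 line. A gene is given by the probe with the highest mean, and by another probe too where its sign or its side of the 0.05 limit differed. All detected members are named, with values on each array for Axin2, Lrp5, Lrp6, those with p under 0.05 and the 10 largest differences, and up to 10 pathway genes by p. The members and lists were chosen with earlier results of these data known. Array barcodes gave 4 slides. Both groups shared slide 1 (replicates 1 and 2 of EXO-Post BSA, replicate 1 of EXO-Post Palm) and slide 3 (replicate 4 of the former, replicate 3 of the latter), and the remaining arrays stood alone. The number of arrays limits the precision.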

Additional observations from a re-analysis of the deposited data

How the results depend on the processing

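No member was called under the 14 alternatives that kept all 7 arrays and the adjusted threshold, and over the models without 1 array there were 0 to 1 member calls. The 9 member probes with an unadjusted limma p under 0.05 were 5 with local background subtraction, and 5 to 10 without 1 array. The non-overlapping member probes numbered 2 with the authors' processed values and 5 to 11 without 1 array, and detected probes numbered 29 to 34. Of the 27 member genes 7 turned sign with slide as a block (Wnt9b, to 0.10, with Dkk3, Lrp5, Lrp6, Wnt1, Wnt5b and Wnt10b), 3 with normexp, local background subtraction and the authors' processed values (Dkk3, Lrp6 and Wnt6), and 0 to 6 without 1 array. Sfrp4 passed the threshold in 1 model, without EXO-Post Palm replicate 2. The median over members was -0.14 to 0.09 without 1 array.

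Over all probes the count of 115 was 181 with slide as a random effect, 173 with trended and robust variance and 2169 unadjusted. It was 0 with no probe filter, with the replicate block and with the methods' t-test, for which 1900, 1933 and 2107 probes had an unadjusted p under 0.05. Without 1 array it was 4 to 228, with 63, 64, 61 and 69 without EXO-Post BSA replicates 1 to 4 and 7, 228 and 4 without EXO-Post Palm replicates 1 to 3. The count of 1 among the other pathway genes, Ccnd1, became 0 with median scaling, no probe filter, slide as a block, the replicate block and the methods' t-test, and was 14 unadjusted. Without 1 array it was 0 to 1, the 1 being Wisp2 without EXO-Post Palm replicate 2, and Ccnd1 was called in 0 of these 7 models. The causes were not tested. Deviations of same-numbered arrays correlated at 0.12, -0.15 and -0.15. Differently numbered arrays were not compared, so these values cannot decide whether replicate numbers pair the arrays. With the replicate block 0 members were called and 9 had an unadjusted limma p under 0.05. Intensity near background limits what can be said of the 18 genes not detected.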
